A study of Brassica napus with 9 samples.

Results

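A small group of genes of oilseed rape (*Brassica napus*) is described, whose transcripts were more abundant in drought-treated leaves sprayed with fullerol than in every library of both other groups. Members were chosen by their FPKM, the fragment count of a gene corrected for gene length and library size. A member carries a Bna identifier, has at least 2 FPKM in each D + F library, and its lowest D + F library lies at least 1.5 times above the highest of the 6 D and CK libraries. In addition, its D and CK means differ by less than 1.5-fold. Of the 104592 genes listed, 101040 have a Bna identifier, and 11 met these conditions after 4 identifiers were left out by name. Because all 9 libraries went into the choice, the levels of the members are given as a description and carry no test.

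RNA-seq was performed on the third leaf of wild type seedlings of the Zhongshuang 11 genotype, with 3 biological replicates in each of 3 groups. D + F plants received 100 mg/L of fullerol on the leaves while the soil dried, D plants dried to 30% of field capacity were sprayed with water alone, and CK plants, sprayed with water as well, stayed at 80% of field capacity. Fullerol was given only under drought, so there was no group of well-watered plants with fullerol, and a response to the particle by itself and a response that needs drought cannot be told apart. The solved library totals ranged from 22809167 to 26042002 read pairs in D + F, from 23028101 to 23674820 in D and from 21939148 to 23703618 in CK. Of 33 carbon fixation genes in the copies of the study's lists, 31 were above 1 FPKM in every library. The study drew these lists from the same libraries, so this is no independent check of the tissue.

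*B. napus* is an allotetraploid: it carries an A subgenome from a *Brassica rapa* ancestor and a C subgenome from a *Brassica oleracea* ancestor, so most genes have a close copy on the other subgenome. Fullerol is a fullerene that hydroxyl groups make soluble in water. Under drought, leaves change the transcripts of many genes of stress signalling, osmolyte synthesis and photosynthesis. The functions of the 11 members are not known here. None of them is among the 1004 genes of the study's pathway lists as copied or in its list of gene names. With 104592 genes listed, absence from those pathway lists is the common case and not a result about the members. Of the 104592 identifiers, 0 were found in the reference gene table used, so this sets the members apart from no other gene. They are therefore called by identifier, and no pathway list could be counted beside them.

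Most members were of low abundance in D and CK. The mean FPKM of a member in D + F ranged from 4.17 to 25.0 with a median of 6.21, against 0.412 to 11.1 in D with a median of 2.31 and 0.519 to 9.75 in CK with a median of 2.11. In 10 of the 11 the D + F mean stayed under 10 FPKM. Averaged over all 9 libraries, the median member had 3.55 FPKM, and the median of the 50626 genes tested, those above 1 FPKM in at least 3 libraries, was 6.32 FPKM. The rule keeps the D and CK values of a member below its D + F values, which lowers the average of the members. The 11 values summed to between 79.0 and 97.7 FPKM in a D + F library, to between 32.9 and 35.4 in a D library and to between 27.6 and 34.6 in a CK library. The libraries are made from whole leaves, in which more cells of a type and more RNA per cell cannot be told apart.

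**Figure D1:**
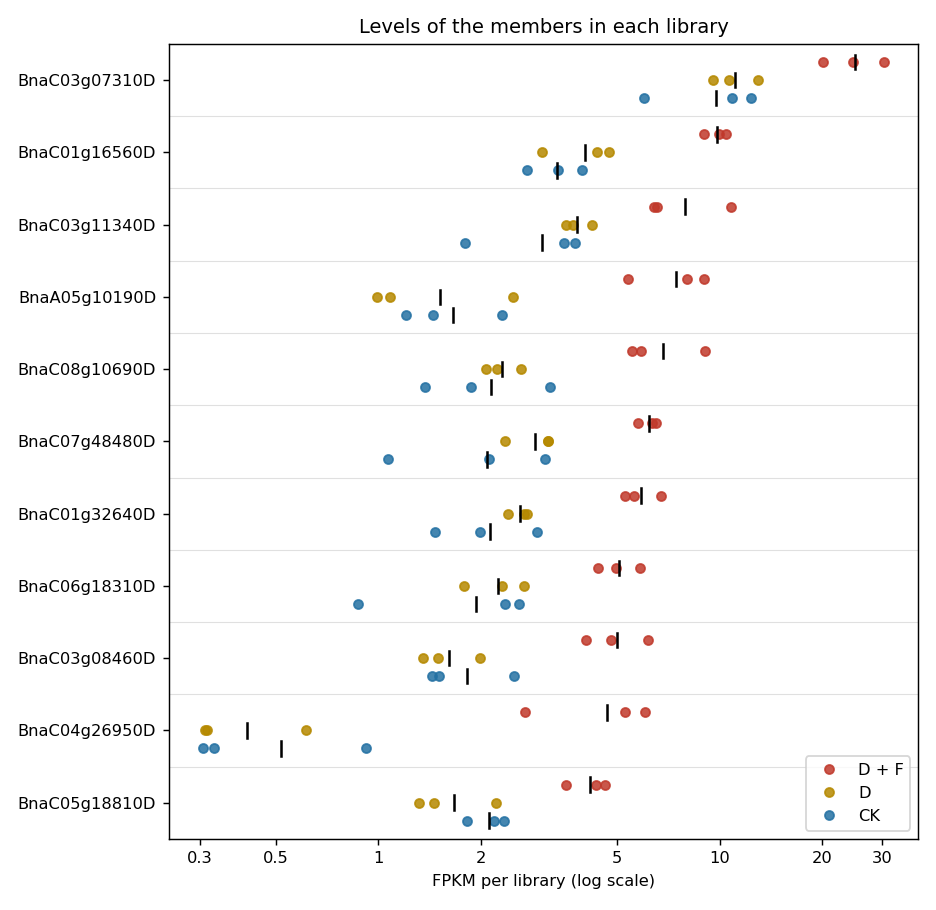
FPKM (log scale) of the 11 members in each of the 9 libraries, ordered by the D + F mean. Points are libraries and black bars are group means of 3. All D + F points lie to the right of all D and CK points, which the choice of members fixes, while the D and CK points overlap or lie close together.

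BnaC04g26950D had the widest separation and the fewest reads. Its level was 6.04, 5.29 and 2.69 FPKM in the D + F libraries 1 to 3, against 0.612, 0.315 and 0.310 FPKM in the D libraries and 0.920, 0.306 and 0.330 FPKM in the CK libraries. The D + F mean was 11.3 times the D mean and 9.003 times the CK mean, and D + F 3 lay well below the other two. The coding length solved for it was 276 bases, the shortest of the group, so these values stand for 38, 38 and 17 reads in D + F, against 4, 2 and 2 reads in D and 6, 2 and 2 reads in CK. Pooled over the libraries, the ratio of D + F to D reads per total was 11.3, with an exact 95% interval of 5.53 to 27.1. This interval covers counting error only, and leaves out the spread between replicates. The same reads chose the member, and its ratio is the largest of the group, so the interval is a description and no test.

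BnaA05g10190D, the only member on the A subgenome, followed with 5.40, 8.98 and 8.02 FPKM in D + F, against 1.08, 0.993 and 2.49 FPKM in D and 2.31, 1.45 and 1.20 FPKM in CK. D 3 and CK 1 stood above the other libraries of their groups, and the lowest D + F value was 2.17 times that of D 3. Its mean was 7.47 ± 1.86 FPKM in D + F, against 1.52 ± 0.839 in D and 1.65 ± 0.581 in CK (SD, n = 3 each), a ratio of 4.92 to D and of 4.52 to CK. BnaC04g26950D and BnaA05g10190D were the only 2 members with a ratio of 3 or more to both groups, and the only 2 whose lowest D + F library was at least 2 times the highest other library.

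BnaC03g07310D was the most abundant member and the only one with a D + F mean above 10 FPKM. Its level was 20.1, 24.5 and 30.4 FPKM in D + F, against 10.7, 12.99 and 9.53 FPKM in D and 12.4, 6.01 and 10.9 FPKM in CK. These values rest on 698 to 1061 reads in a D + F library, 339 to 456 in a D library and 217 to 446 in a CK library. The ratio of the means was 2.26 to D and 2.56 to CK, but the libraries varied so that D + F 1 lay only 1.55 times above D 2. CK 2 was the low library of its group.

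In a further 2 members the D + F libraries lay close together. BnaC07g48480D had 5.77, 6.34 and 6.51 FPKM in D + F, against 3.15, 2.35 and 3.13 FPKM in D and 2.104, 3.08 and 1.07 FPKM in CK. BnaC01g16560D had 10.4, 9.02 and 9.94 FPKM in D + F, against 4.36, 3.02 and 4.73 FPKM in D and 3.35, 3.95 and 2.73 FPKM in CK. The coefficient of variation in D + F was 6.26% and 7.19% in these genes, the lowest of the 11. BnaC07g48480D was at the same time the member whose D and CK means differed most, 2.88 ± 0.457 FPKM in D against 2.08 ± 1.01 FPKM in CK (SD, n = 3 each), a ratio of 1.38.

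The D + F mean of BnaC03g08460D was 3.11 times the D mean and 2.76 times the CK mean. It had 4.05, 6.16 and 4.80 FPKM in D + F, against 1.49, 1.35 and 1.99 FPKM in D and 2.50, 1.503 and 1.43 FPKM in CK. With 2892 bases it had the longest coding length, and 267 to 464 reads in a D + F library. BnaC08g10690D had 5.52, 5.88 and 9.06 FPKM in D + F, against 2.23, 2.07 and 2.62 FPKM in D and 1.37, 1.87 and 3.18 FPKM in CK, so that D + F 3 and CK 3 were the high libraries of their groups. Its ratio of means was 2.96 to D and 3.19 to CK.

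In BnaC01g32640D and BnaC06g18310D, the CK libraries varied more than the D libraries. The same held in all other members except BnaA05g10190D, BnaC01g16560D and BnaC05g18810D, so it does not set these genes apart. BnaC01g32640D had 5.63, 6.74 and 5.28 FPKM in D + F, against 2.68, 2.72 and 2.40 FPKM in D and 1.47, 2.92 and 1.98 FPKM in CK. BnaC06g18310D had 4.96, 4.41 and 5.85 FPKM in D + F, against 1.78, 2.66 and 2.30 FPKM in D and 2.35, 2.59 and 0.873 FPKM in CK. The ratio of D + F to D means was 2.26 in both, and CK 3 of BnaC06g18310D, with 10 reads, was the lowest value among the members other than BnaC04g26950D.

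BnaC03g11340D and BnaC05g18810D lay nearest to the threshold on the separation. BnaC03g11340D had 6.56, 6.40 and 10.8 FPKM in D + F, against 3.55, 4.22 and 3.71 FPKM in D and 3.50, 3.76 and 1.79 FPKM in CK. BnaC05g18810D had 4.63, 3.55 and 4.34 FPKM in D + F, against 1.32, 1.46 and 2.21 FPKM in D and 2.34, 1.82 and 2.19 FPKM in CK. In both, the lowest D + F library was 1.52 times the highest other library. BnaC05g18810D was also the member with the smallest ratio to CK, 1.97, and the one whose D mean lay furthest below CK, at 0.786 times the CK mean.

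Over the 11 members, the ratio of the D + F mean to the D mean ranged from 2.07 to 11.3 with a median of 2.43, and that to the CK mean from 1.97 to 9.003 with a median of 2.77. D means were above CK means in 7 members and below in 4. The highest of the 6 other libraries belonged to D in 6 members and to CK in 5. Among the D + F libraries, D + F 1 held the highest value of 3 members, D + F 2 of 3 and D + F 3 of 5, while over all genes tested these libraries were the highest of the group in 26.7%, 20.6% and 52.7%. The median coefficient of variation of the members was 20.7% in D + F, 19.7% in D and 35.1% in CK, against 18.7%, 16.5% and 21.0% over all genes tested, so that CK was the group in which the members varied most.

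The separation was narrow for most members. The lowest D + F library lay 1.52 to 2.92 times above the highest other library, with a median of 1.74, and in 9 of 11 members by less than 2-fold. Just outside was BnaC04g43660D, at 1.48 times, and 11 genes that met the remaining conditions had a separation of 1.4 to 1.5 times. On the ratio of D to CK means, the member nearest the threshold differed by 1.38-fold and the nearest gene outside, BnaC08g29930D, by 1.51-fold. On the minimum level, BnaC04g26950D was the nearest inside with 2.69 FPKM in its lowest D + F library, and BnaA10g08520D the nearest outside with 1.90 FPKM.

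**Figure D2:**
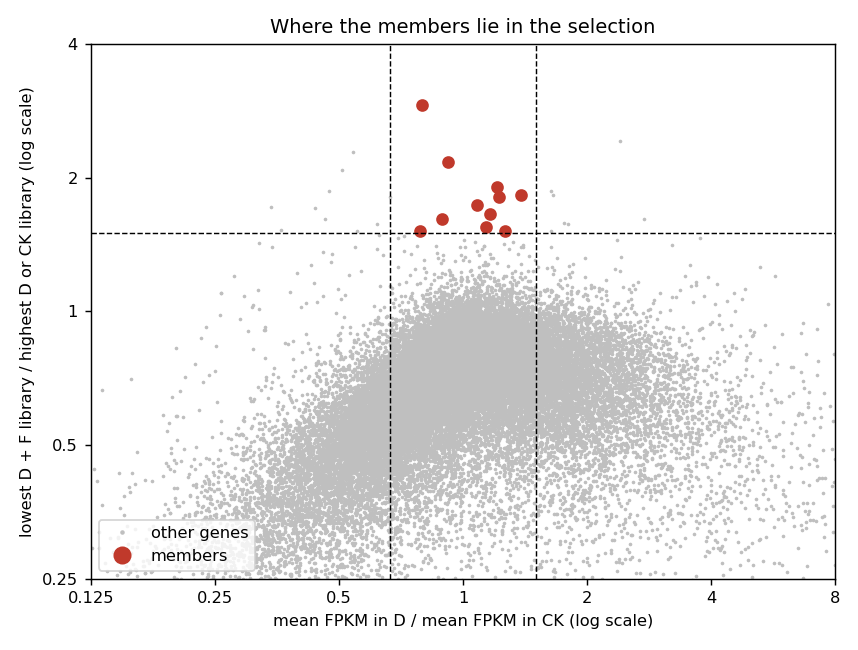
The selection of the members: the ratio of D to CK mean FPKM (x axis) and the lowest D + F library over the highest D or CK library (y axis), both on log scales, for the 11 members (red) and 36527 other Bna genes with at least 2 FPKM in each D + F library (grey). Dashed lines are the thresholds of 1.5-fold, and 5.45% of the other genes lie outside the axes. The members sit just above a dense cloud, with BnaC04g26950D and BnaA05g10190D highest.

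Few genes were left at each step. Of 36541 Bna genes with at least 2 FPKM in every D + F library, 30 had a lowest D + F library at least 1.5 times above all other libraries, and 12 of these had D and CK means within 1.5-fold, 1 of which was left out by name. Among the other 18, D was above CK in 8 and below CK in 10. Without any fold minimum, 1328 genes, 2.62% of those tested, had all 3 D + F libraries above all D and CK libraries.

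When the roles of the groups were exchanged under the same thresholds, 9 genes were lowered only in D + F. For a lowered set, each library of both other groups had at least 2 FPKM and lay at least 1.5 times above the lowered group's highest library. For D, 75 genes were raised and 140 lowered only in that group, and for CK, which differs from both other groups in its water supply, 1011 were raised and 1370 lowered. The set raised only in D + F was thus of a like size to the set lowered only in D + F, and both were smaller than each of the other 4. The minimum level applied to different libraries in raised and lowered sets, so their sizes compare only roughly. These counts are a description without a test. With the libraries scaled by the median of ratios over 39770 genes, 8 genes were raised only in D + F, 12 lowered, and the number lowered only in D was 75.

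**Figure D3:**
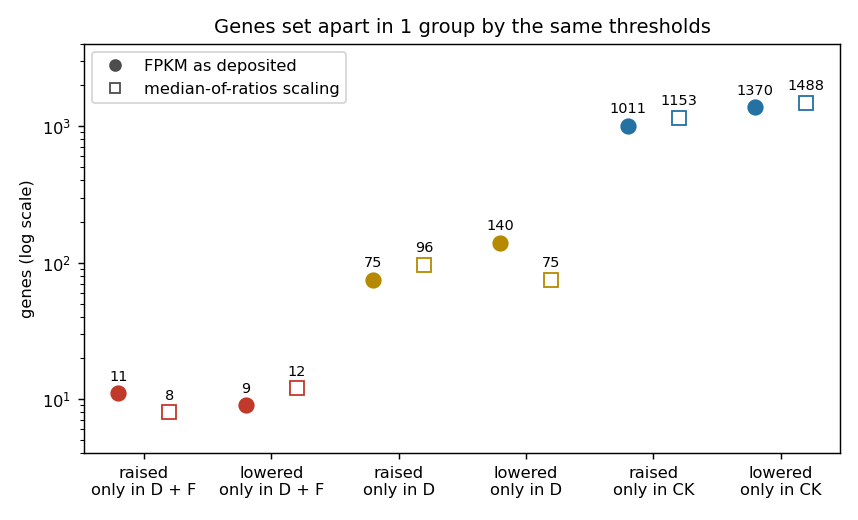
Number of genes (log scale) that meet the same thresholds with each group as the one set apart, raised or lowered. The minimum level applies to the group itself in raised sets and to both other groups in lowered sets. Filled circles are FPKM as deposited and open squares FPKM after median-of-ratios scaling; the D + F sets hold 11 and 9 genes as deposited, the CK sets 1011 and 1370.

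The number of genes that met the conditions depended on single libraries. Without D + F replicate 1, 149 genes met them, against 28 without D + F replicate 2 and 19 without D + F replicate 3. Leaving out a D + F library can only add genes under this rule, so each of these sets kept all 11 members. D + F 1 was the lowest D + F library in 5 of the 11 members. Leaving out D replicate 1, 2 or 3 gave 24, 19 or 22 genes and kept 10, 10 or 9 members. Leaving out CK replicate 1, 2 or 3 gave 45, 10 or 30 genes and kept 11, 8 or 11 members. Without a D or CK library the separation cannot narrow. The members lost there no longer met the 1.5-fold limit on the ratio of D to CK means. Scaling by the median of ratios kept 7 and lost BnaC03g07310D, BnaC03g11340D, BnaC05g18810D and BnaC06g18310D, and a separation of 2-fold kept BnaC04g26950D and BnaA05g10190D alone.

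Each pair of groups was also fitted across all 50626 genes with limma on log2(FPKM + 1). In D + F vs. D, 409 genes (0.808%) were higher and 171 (0.338%) lower at an adjusted p under 0.05, and 7 of the 11 members were among the higher ones. In D + F vs. CK, 4508 genes (8.9%) were higher and 4133 (8.16%) lower, and all 11 members were among the higher ones. In D vs. CK, 6248 genes (12.3%) were higher and 9961 (19.7%) lower, with 0 members in either direction, 0 members at an unadjusted p under 0.05 and 0 called by limma's voom on the solved reads. Nothing is read from these member counts, since the same libraries chose the members. The 4 members without a call in D + F vs. D were BnaC03g07310D, BnaC03g11340D, BnaC05g18810D and BnaC06g18310D.

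The calls in D + F vs. D depended on single libraries over all genes, the members included. Without D + F replicate 2, D replicate 1 or D replicate 2, limma called 0, 0 and 7 genes higher and 0, 2 and 4 lower, with 0 members in each, though all 11 members, by their choice, had an unadjusted p under 0.05 in each; voom was not run without a library. Without D + F replicate 3 or D replicate 3, 19 and 84 genes were called higher and 1 member in each. Without D + F replicate 1, 446 genes were called higher and 5 members. Against CK, 1697, 2055 and 1603 genes were called higher without D + F replicate 2, D + F replicate 3 and CK replicate 2, with 3, 4 and 5 members among them. Over all genes tested, D + F vs. D had a median log2 fold change of 0.14 as deposited and of 0.01 after scaling. The fitted log2 fold changes of the members were 0.86 (BnaC03g11340D) to 1.96 (BnaC04g26950D), values that the choice of members sets.

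What the members share beyond the rule was examined in their identifiers and solved lengths. The files give no coordinates. By the naming of the identifiers, 10 of the 11 lie on the C subgenome, 90.9%, against 52.7% of the Bna genes tested. This share rests on 11 genes and was not tested. Most of the 4 identifiers left out by name are on the A subgenome, and 1 of the 4 had met the thresholds. Chromosome C03 holds 3 members and C01 holds 2, but they are far apart in the order of identifiers: 114 and 287 identifiers lie between those on C03, and 1607 between those on C01. Coding lengths were 276 to 2892 bases with a median of 762, against a median of 1014 over the genes tested. No gene copies were compared, and the study does not state how reads that match both an A and a C copy were counted, so the level of each member is uncertain to that extent.

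The genes next to the members were examined because the rule did not choose them. The 5 identifiers on either side of each member gave 110 neighbours, none of them a member, and 54 were tested. In D + F vs. D, 0 neighbours were called by limma's adjusted p, 0 by voom on the solved reads, and 11 (20.4%) had an unadjusted p under 0.05, against 17.6% of all genes tested. With 0.808% of all genes called higher and 0.338% lower in this comparison, 0 of 54 is near the share over all genes and is not a result about the neighbours. Their log2 fold changes had a median of 0.08 and a range of -0.68 to 1.14, and 36 of 54 (66.7%) were higher in D + F, against 69.7% of the genes tested. The 15 genes directly adjacent to a member had log2 fold changes of -0.46 to 0.71.

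In D + F vs. CK, 5 of the 54 neighbours were called higher and 3 lower, near the 8.9% and 8.16% of all genes tested. Both directions together, 4, 1 and 5 were called without D + F replicate 1, 2 and 3, and 5, 1 and 7 without CK replicate 1, 2 and 3. The largest of these changes was in the gene directly after BnaA05g10190D: BnaA05g10200D had 107 ± 24.5 FPKM in D + F and 12.8 ± 6.32 FPKM in CK (SD, n = 3 each), a log2 fold change of 3.03 ± 0.33 (SE; limma's adjusted p = 0.0026). It had 113 ± 37.4 FPKM in D, and the log2 fold change of D + F over D was -0.04 ± 0.30 (SE; limma's adjusted p = 0.954). In the member beside it, BnaA05g10190D, the D mean was 0.919 times the CK mean. The gene that followed it in the order of identifiers was thus high in both drought groups and the member in D + F alone. The rule required that pattern of the member, so the contrast between the 2 genes is a description only. A neighbour of BnaC01g32640D, BnaC01g32590D, changed nearly as much against CK. It had 107 ± 82.0 FPKM in D + F and 9.84 ± 4.37 FPKM in CK (SD, n = 3 each). The log2 fold change was 2.97 ± 0.73 (SE, limma's adjusted p = 0.033).

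**Figure D4:**
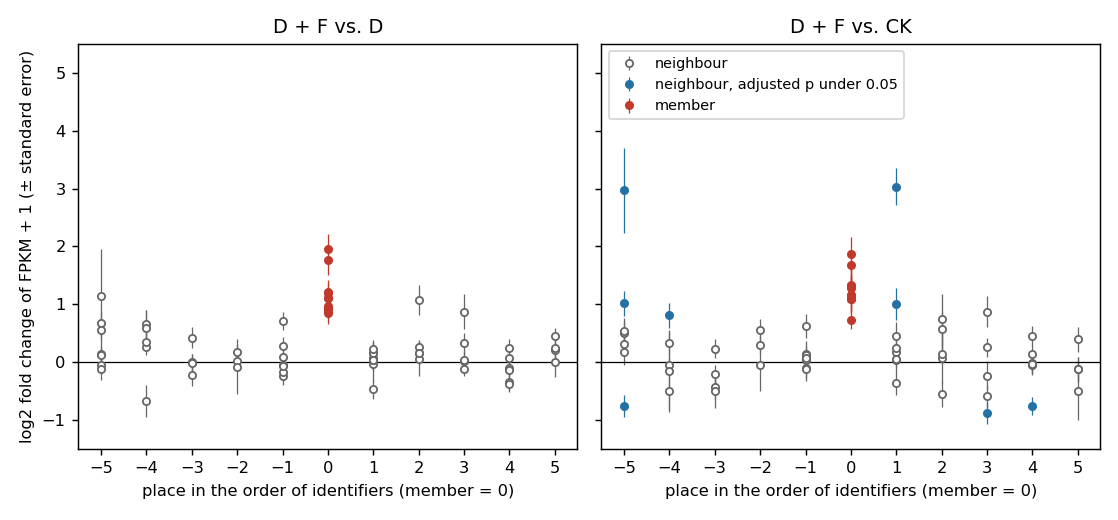
Log2 fold change of FPKM + 1 (± standard error, limma) for the members (red, place 0) and the tested genes within 5 identifiers of them, in D + F vs. D (left) and D + F vs. CK (right). Filled blue points are neighbours with an adjusted p under 0.05: none in D + F vs. D and 8 in D + F vs. CK.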

How the data were processed

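The 9 leaf RNA-seq libraries (3 each of D + F, D and CK) were grouped by their labels. The authors cleaned the reads, mapped the pairs with TopHat to the *B. napus* genome of BRAD, summarized reads per gene with HTSeq and deposited FPKM values. The submitters' processing notes name Bowtie 0.12.2 and a mouse build (mm8) instead; the Bna identifiers are those of *B. napus*. Whole reads, lengths and totals were solved from the digits of the FPKM (99.4% of values above 0 gave whole reads within the tolerance), and 96.8% of solved lengths are multiples of 3, so they are called coding lengths. With these totals, 3 reads on 1 kb correspond to 0.115 to 0.137 FPKM.

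The members and lists were chosen with earlier results of these data known. Each pair of groups (6 libraries) was fitted with limma 3.58.1 in R 4.3.3, with a mean-variance trend and no replicate block, on log2(FPKM + 1) of genes above 1 FPKM in at least 3 libraries; a call is a Benjamini-Hochberg adjusted p under 0.05 over all genes tested. The solving of reads and the D + F vs. D fit were tried on simulated data. Changes were planted only in the more abundant genes and no effects of single libraries were simulated. These trials therefore say nothing about how far the calls here depend on single libraries. The rule for single genes took annotated members, of which there were none, and the most abundant member, BnaC03g07310D. The remaining members are named because the set consists of them. The genes at the thresholds, BnaA05g10200D and BnaC01g32590D were named after their values were seen. Alternatives were median-of-ratios scaling, a pseudocount of 0.1, other filters, a joint fit of the 9 libraries, a block on the replicate number, other thresholds and leaving out each library; added after seeing the data were voom on the solved reads and the counts of neighbours. Python 3.11.15 (pandas 2.3.3, numpy 2.4.6, scipy 1.17.1, matplotlib 3.10.9) served for tables and plots.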

Additional observations from a re-analysis of the deposited data

How the results depend on the processing

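The number of genes that met the conditions was 11, against 8 after median-of-ratios scaling, 2 with a separation of 2-fold, 29 and 7 with a minimum level of 1 and 5 FPKM, and 10 to 149 when 1 library was left out. The members called in D + F vs. D, 7 of 11, came to 0 without a filter on low values, where 15 genes were called higher and 7 lower of all 76352, to 1 of the 2 members tested with a mean FPKM of at least 5, 4 by voom and 0 to 5 when 1 library was left out. In D + F vs. CK, 11 members were called, against 6 without the filter (3197 genes called higher in all), 2 of the 2 tested with a mean FPKM of at least 5, and 3 to 11 when 1 library was left out. In D vs. CK, limma and voom called 0 members under each alternative run, with at most 1 at an unadjusted p under 0.05 (without CK replicate 2). Of the sets with exchanged roles, the one lowered only in D moved from 140 to 75 genes after scaling, and the other sets stayed within 1.5 times. The 154 log2 ratios of members under the alternatives lay between 0.76 and 3.90, and their sign was fixed by the choice of members.

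With the replicate number as a block, D + F vs. D had 0 genes called higher and 1 lower of all 50626, and so 0 members, and D + F vs. CK had 5989 called higher, 10 members among them. The labels do not say whether equal numbers pair the libraries, and a pairing was not tested. Deviations of same-numbered libraries correlated between -0.291 and 0.306, and 3 of 9 such pairs were above 0.1. The best partner of a library in another group had its own number in 9 of 18 cases. Between D + F and CK, the same-numbered correlations were 0.306, 0.053 and 0.266 for numbers 1 to 3. There, each library had its best partner under its own number. Between D + F and D the correlations were -0.191, -0.096 and 0.221, and between D and CK -0.291, 0.058 and -0.021.

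At the depth used, the lowest counts of BnaC04g26950D in D and CK were 2 reads, which limits its ratios. There were 3 libraries per group, no annotation of the members and no group with fullerol but without drought.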

Other observations

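Besides the 11 members, 1 locus listed outside the Bna gene models met the same thresholds on level, separation and the ratio of D to CK means.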
